A study of Mus musculus with 6 samples.

Results

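*Lynx1*, 5 other LY6 prototoxin genes and 3 nicotinic acetylcholine receptor subunit genes were followed in polyA+ RNA of the cortex at embryonic day 18.5 (E18.5). The 9 genes were taken by symbol from a deposited table of 59484 features, and each had 1 row. They were *Lynx1*, *Ly6h*, *Ly6e*, *Lypd1*, *Lypd6*, *Lypd6b*, *Chrna4*, *Chrna7* and *Chrnb2*. *Lynx1* was chosen because its level was lower in the mutant cortex, so its genotype difference is described here without a test. The other 8 genes were chosen by family. Cortex libraries of wild-type embryos (WT, replicates 1 to 3) were compared with 3 libraries of embryos knocked out for both Sam68 (*Khdrbs1*) and Slm2 (*Khdrbs3*), whose genotype is given as Sam68:Slm2 ko and which are named dKO here. The mice were C57BL/6, no treatment is given, and whether each library came from 1 embryo is not stated. Values are normalized counts, that is, reads per gene divided by a size factor of the library. Libraries held between 31837922 and 40896541 reads.

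Prototoxins are small proteins of the LY6/uPAR family, with the same finger-shaped fold as the snake toxins that block nicotinic receptors. Most are held on the outer membrane by a lipid anchor, where they bind nicotinic receptors and change their assembly, traffic to the surface or response to acetylcholine. Lynx1 lowers receptor sensitivity and is best known from the adult visual cortex, where its rise after the critical period restrains plasticity. The receptors themselves are pentamers. In the forebrain the common forms are made of the alpha4 and beta2 subunits, encoded by *Chrna4* and *Chrnb2*, or of alpha7 alone, encoded by *Chrna7*. Several LY6 genes, *Lynx1*, *Ly6e* and *Ly6h* among them, lie in a cluster on chromosome 15.

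The genes targeted in the mutants were read first. *Khdrbs1* had 8213 ± 232 normalized counts in WT and 152 ± 41.5 in dKO cortex (SD, n = 3 each). *Khdrbs3* retained 48.1% of its WT level when counted over the whole gene, so that the count alone does not show loss of SLM2. Features whose normalized counts averaged 10 or more over the 6 libraries were tested, 18970 in all. Of these, 9 were lower (0.0474%) and 10 higher (0.0527%) in dKO cortex at an adjusted *P*-value under 0.05 from limma. All 9 genes passed this filter on low values. In bulk tissue, fewer cells that express a gene and less RNA per cell cannot be told apart.

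*Lynx1* (GSMG0014120, chromosome 15 from 74747852 to 74753010 on mm10, minus strand) had 293, 208 and 333 normalized counts in WT replicates 1, 2 and 3. In the dKO libraries the values were 90.8, 79.5 and 95.1. Every dKO library therefore lay below every WT library, and the dKO values were close together while WT replicate 2 was low within its genotype. These values rest on 308, 194 and 380 reads in WT and on 100, 76 and 82 reads in dKO cortex. Mean *Lynx1* levels were 278 ± 63.7 in the WT and 88.4 ± 8.07 in the dKO libraries (SD, n = 3 each), which leaves 31.8% of the WT level. On the scale of log2(normalized count + 1) the difference was -1.62 (standard error 0.21). No other feature of the table overlaps the *Lynx1* span. The fall is what selected the gene, and it is read here only as the starting point for the comparison with its family and its receptors.

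**Figure D1:**
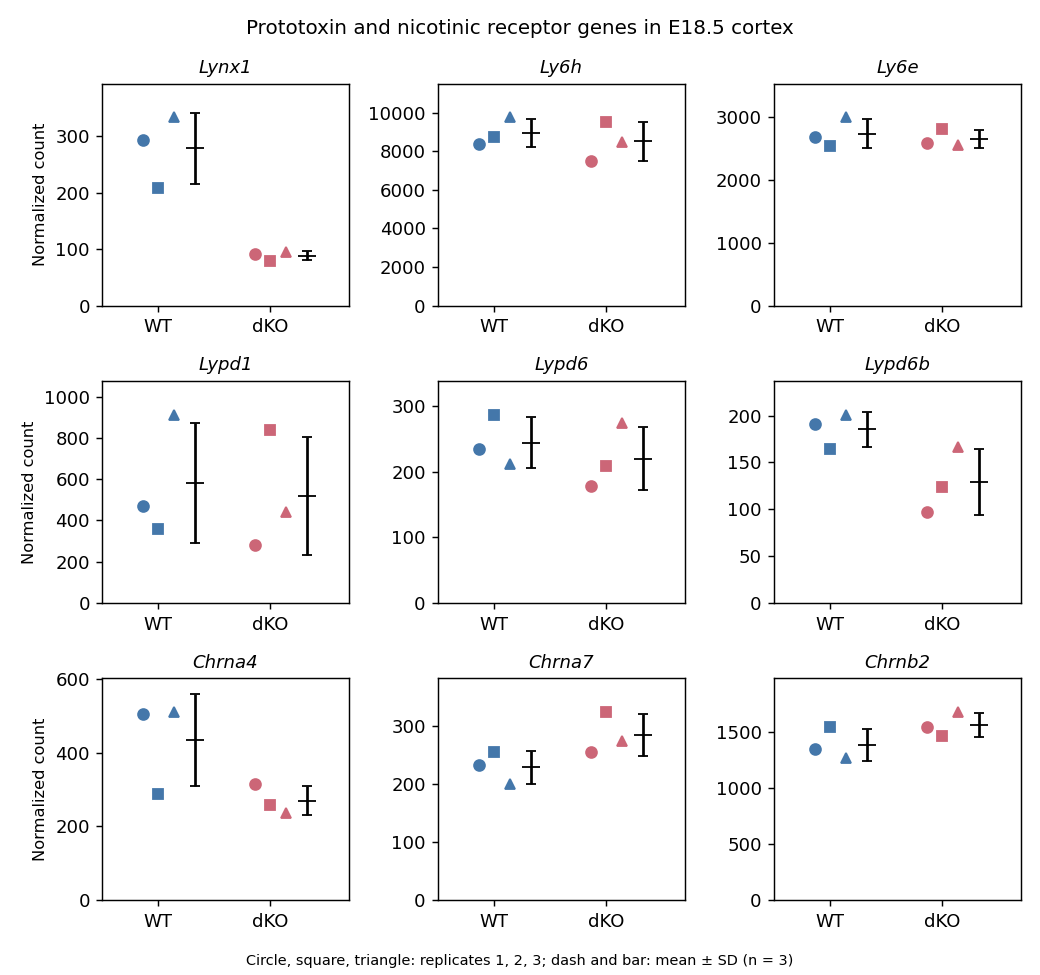
Normalized counts of the 9 genes in each library (one panel per gene, vertical axis from 0). Blue marks are WT and red marks dKO embryos, the shape gives the replicate, and the black dash and bar give the mean ± SD of 3 libraries. The genotypes are apart in the *Lynx1* panel, where the dKO libraries sit between 79.5 and 95.1, and they overlap in the other 8 panels.

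None of the other 5 prototoxin genes and none of the 3 receptor genes passed the adjusted *P*-value of 0.05, where 0.0474% of all features did so as lower and 0.0527% as higher. An unadjusted *P*-value under 0.05 was found for 2 of these 8, *Lypd6b* and *Chrna4*, both lower in dKO cortex, where 6.58% of all features were lower at that level. This count went to 0 with WT replicate 1 or WT replicate 3 left out, to 4 without WT replicate 2, and to 1 without dKO replicate 1 or dKO replicate 2. The median log2 difference of the 8 genes was -0.12, against 0.00 (0.004 before rounding) over all features tested, and in all 8 the genotypes overlapped.

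*Ly6h* (chromosome 15 from 75551268 to 75567182) encodes a prototoxin that limits the amount of alpha7 receptor at the neuronal surface. Its WT libraries held 8356, 8754 and 9751 normalized counts, and its dKO libraries held 7501, 9535 and 8498. The dKO range covered most of the WT range. The log2 difference was -0.08 (95% interval -0.30 to 0.14, adjusted p = 0.784 from limma). *Ly6e* (chromosome 15 from 74955051 to 74959905) encodes a widely expressed LY6 protein, also studied for its part in viral entry. It had 2679, 2545 and 2997 normalized counts in WT and 2589, 2818 and 2562 in dKO cortex. The log2 difference of *Ly6e* was -0.04 (95% interval -0.24 to 0.15, adjusted p = 0.870 from limma). An unnamed feature, GSMG0066462, covers the same span as *Ly6e* with 66.9 to 137 normalized counts in a library (log2 difference -0.52, adjusted p = 0.468 from limma), and the counting may have split reads between them. The intervals of both genes did not reach the *Lynx1* point value of -1.62, which is the value that selected *Lynx1*. Nor did those of the remaining members, of which the interval of *Lypd1* reached lowest, to -1.40. The interval of *Lynx1* itself ran from -2.075 to -1.163 and overlapped that of *Lypd1*. The difference between *Lynx1* and another member was not tested.

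*Lypd1* (chromosome 1 from 125867624 to 125912930), also called Lynx2, encodes a prototoxin of postmitotic neurons that binds nicotinic receptors. It varied most within a genotype, with 470, 360 and 912 normalized counts in WT and 281, 837 and 442 in dKO cortex. The highest WT library was 2.53 times the lowest, and the highest dKO library 2.97 times the lowest. An end of *Lypd1* overlaps *Gpr39*, with a mean of 12.9 normalized counts. The log2 difference of *Lypd1* was -0.19 with a wide interval from -1.40 to 1.02 (adjusted p = 0.907 from limma), and it changed sign, to 0.19 and 0.18, with WT replicate 3 or dKO replicate 1 left out.

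*Lypd6* (chromosome 2 from 50066429 to 50193569) encodes a prototoxin that also acts on Wnt signalling. It had 235, 287 and 212 normalized counts in WT and 179, 208 and 274 in dKO cortex, and the ranges overlapped over most of their length (log2 difference -0.16, 95% interval -0.59 to 0.26, adjusted p = 0.762 from limma). Its neighbour *Lypd6b* (chromosome 2 from 49787686 to 49948846), whose product also modulates nicotinic receptors, had 191, 164 and 201 normalized counts in WT. The dKO libraries held 97.1, 123 and 167, of which dKO replicate 3 lay just above WT replicate 2. The mean of *Lypd6b* in dKO cortex was 69.7% of that in WT, a log2 difference of -0.55 (95% interval -1.03 to -0.07, adjusted p = 0.394 from limma).

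*Chrna4* (chromosome 2 from 181022312 to 181039188) had 504, 289 and 509 normalized counts in WT and 314, 259 and 237 in dKO cortex. WT replicate 2 lay below dKO replicate 1, so that the genotypes overlapped. The mean of *Chrna4* in dKO cortex was 62.2% of that in WT, a log2 difference of -0.65 (95% interval -1.13 to -0.16, adjusted p = 0.357 from limma). Without WT replicate 2 the difference was -0.92 (adjusted p = 0.0808 from limma), and over all alternatives the adjusted *P*-value did not go lower. *Chrnb2* (chromosome 3 from 89746195 to 89764632) had 1351, 1540 and 1264 normalized counts in WT and 1545, 1459 and 1675 in dKO cortex. Its log2 difference was 0.17 (95% interval -0.05 to 0.40, adjusted p = 0.523 from limma). The *Chrnb2* span overlaps those of *Adar*, with a mean of 3397 normalized counts, and *Il6ra*. The library kit keeps the strand, but whether the counting used it is not stated, so reads in the overlap are uncertain.

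*Chrna7* (chromosome 7 from 63098692 to 63212571) had 232, 256 and 199 normalized counts in WT and 254, 323 and 274 in dKO cortex. Only WT replicate 2 reached the dKO range, just above dKO replicate 1. The log2 difference was 0.31 (95% interval -0.04 to 0.66, adjusted p = 0.487 from limma). The *Chrna7* span is overlapped by 2 unnamed features of the table, with means of 269 and 17.0 normalized counts, under the same uncertainty. The 3 receptor genes thus gave point values on both sides of 0, with *Chrna4* lower and *Chrnb2* and *Chrna7* higher, none past the threshold.

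Levels of different genes were compared per kb of the longest annotated transcript. In WT cortex *Ly6h* was highest, with 3197 ± 256 normalized counts per kb, followed by *Ly6e* with 1201 ± 102 and *Chrnb2* with 216 ± 22.1 (SD, n = 3 each). The libraries of these 3 genes did not overlap with each other or with those of the other 6. The other 6 had WT means between 67.6 and 95.1 normalized counts per kb, in the order *Chrna4*, *Lypd1*, *Chrna7*, *Lypd6b*, *Lynx1* and *Lypd6*. Their libraries all overlapped, so neighbours in this order did not differ beyond their spread, and *Lynx1*, with 69.1 ± 15.8, was one of this low group. In dKO cortex the *Lynx1* level was 22.0 ± 2.01 normalized counts per kb (SD, n = 3), between 19.8 and 23.6. The lowest dKO library of any of the other 8 genes was at 42.5, in *Lypd6b*. With these lengths *Lynx1* was thus within the low group in WT cortex and below it in dKO cortex. Beyond the first 2 places the order depends on the length rule. With the median transcript length in place of the longest, *Ly6h* and *Ly6e* stayed highest, *Chrna4* came next with 610 ± 177 normalized counts per kb in WT, and *Chrnb2* went from rank 3 to rank 7 with 225 ± 23.0 (SD, n = 3 each). *Lynx1* then stood at rank 5 of the 9 in WT and at rank 7 in dKO cortex, where its libraries (112.6 to 134.7) overlapped those of *Chrna7* and lay above those of *Lypd6*.

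**Figure D2:**
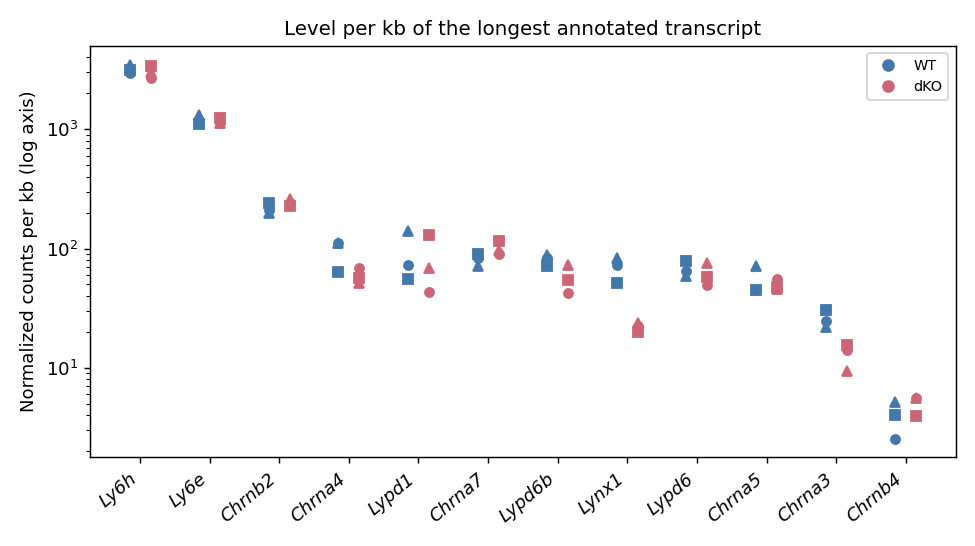
Normalized counts per kb of the longest annotated transcript for the 9 genes and for *Chrna5*, *Chrna3* and *Chrnb4*, by library, on a log axis. Blue marks are WT and red marks dKO libraries, and the shape gives the replicate as in the plot of counts. *Ly6h* and *Ly6e* stand above the rest, and *Lynx1* moves from 51.8 to 82.8 per kb in WT to 19.8 to 23.6 in dKO cortex.

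Summed over the 6 prototoxin genes, the libraries held 4452, 4499 and 5165 normalized counts per kb in WT and 3971, 4900 and 4398 in dKO cortex, and the genotypes overlapped. *Ly6h* made up between 67.0% and 69.5% of the sum in all 6 libraries, and *Ly6e* between 24.8% and 28.6%, by the longest transcript. With the longest transcripts the share of *Lynx1* was 1.64%, 1.15% and 1.60% in WT and 0.568%, 0.403% and 0.538% in dKO cortex. With the median lengths it was between 2.23% and 3.14% in WT and between 0.778% and 1.11% in dKO cortex. The fall of *Lynx1* therefore concerned a small part of the prototoxin RNA of the tissue at this age. The shares do not show how the transcripts are spread over cells.

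By the longest transcript, the 6 tested nicotinic subunit genes summed to between 474.7 and 479.2 normalized counts per kb in WT and between 466.4 and 476.0 in dKO cortex. Within this sum *Chrnb2* held 44.3%, 50.7% and 41.2% in WT and 50.7%, 48.9% and 55.5% in dKO libraries. The share of *Chrna4* was 23.2%, 13.3% and 23.3% in WT and 14.4%, 12.2% and 11% in dKO libraries, with WT replicate 2 inside the dKO range. *Chrna7* held between 14.8% and 19.1% in WT and between 19.0% and 24.6% in dKO cortex. The near-equal sums and the leading place of *Chrnb2* did not hold with the median length, where *Chrna4* held most. The sums were then 1118, 866 and 1134 normalized counts per kb in WT and 896, 822 and 797 in dKO cortex. *Chrna4* made up between 46.9% and 63.3% of them in WT and between 41.7% and 49.2% in dKO libraries, and *Chrnb2* between 18.1% and 34.2% over all 6. Neither order of the subunits is therefore settled by these data.

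Of the 16 nicotinic subunit genes, 6 were tested, 2 were at 0 in all libraries, and 8 had a mean under 10 normalized counts over the 6 libraries. Among the latter were the muscle subunit genes *Chrna1*, *Chrnb1*, *Chrnd*, *Chrne* and *Chrng*. None of the 6 passed the adjusted *P*-value of 0.05, and the 2 with an unadjusted *P*-value under 0.05 were *Chrna4* and *Chrna3*, both lower, as were 6.58% of all features. The median log2 difference of the 6 was 0.04. *Chrna3*, which encodes the alpha3 subunit of autonomic ganglia and habenula, had 107, 133 and 96.4 normalized counts in WT. In dKO libraries it had 61.7, 66.9 and 40.6, so that each lay below every WT library, a pattern found in 8.48% of all features. The log2 difference of *Chrna3* was -1.0 (95% interval -1.58 to -0.42, adjusted p = 0.271 from limma, lowest over the alternatives 0.0724 with DESeq2 on the recovered reads). *Chrna5* and *Chrnb4*, its neighbours on chromosome 9, had log2 differences of -0.09 (95% interval -0.59 to 0.41) and 0.38 (95% interval -0.62 to 1.37), with overlapping genotypes. *Chrnb4* was near the floor of the table, with between 10 and 23 reads in a library.

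The *Lynx1* values were set beside those of the LY6 genes on chromosome 15. Of the 20 other genes listed for this cluster, 19 were in the table, of which 7 were at 0 in all libraries and 5 were tested. *Slurp2*, at -1.2 kb from *Lynx1* (negative distances lie toward *Khdrbs3*), was at 0 in all 6 libraries, as were *Slurp1* and *Psca*, while *Lypd2* and *Ly6d* had means under 2 normalized counts in each genotype. The tested genes were *Ly6e*, *Ly6a*, *Ly6c1*, *Ly6h* and *Gpihbp1*. All 5 had log2 differences below 0, from -0.81 to -0.04, none passed an adjusted or unadjusted *P*-value of 0.05, and in all 5 the genotypes overlapped. Over all features tested, 49.4% were below 0. *Ly6c1* had 131, 103 and 168 normalized counts in WT and 86.2, 128 and 74.2 in dKO cortex (log2 difference -0.49, 95% interval -1.07 to 0.09). *Ly6a* had a log2 difference of -0.41 (95% interval -1.30 to 0.48). *Gpihbp1* had one of -0.81 (95% interval -2.15 to 0.53) on between 4 and 20 reads in a library.

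*Ly6c1*, *Ly6a* and *Gpihbp1* are genes of the vascular endothelium, and endothelial markers were given beside them. The 8 markers (*Cldn5*, *Pecam1*, *Cdh5*, *Flt1*, *Kdr*, *Tek*, *Tie1* and *Esam*) summed to between 5786 and 7348 normalized counts in WT and between 5464 and 6174 in dKO cortex. Their median log2 difference was -0.18, and 2 of the 8 were lower at an unadjusted *P*-value under 0.05, as were 6.58% of all features. In both the endothelial sums and *Ly6c1* and *Ly6a*, WT replicate 2, dKO replicate 1 and dKO replicate 3 were lower than the other 3 libraries. The part of this in the *Ly6c1*, *Ly6a* and *Gpihbp1* values was not tested.

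Within 1 Mb of *Lynx1* the table lists 231 other features. Of these, 193 were at 0 in all libraries and 22 were tested. None of the 22 passed an adjusted *P*-value of 0.05. At an unadjusted *P*-value under 0.05, 4 were lower and 1 was higher, against 6.58% lower and 4.92% higher over all features. In 4 of them every dKO library was below every WT library, where 8.48% of all features showed this, and in 1 every dKO library was higher, where 7.89% did. The median log2 difference of the 22 was -0.19, and 17 of them were below 0, as were 49.4% of all features tested. *Lynx1* itself lies 5.65 Mb from the end of the targeted *Khdrbs3* gene, *Ly6e* 5.85 Mb and *Ly6h* 6.45 Mb. Sequence linked to the targeted allele and the absence of SLM2 cannot be told apart in this design.

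The 5 tested features without overlap in the window are named here after their values were seen, as is *Adgrb1*. *Them6*, at -19.8 kb from *Lynx1*, had 180, 171 and 211 normalized counts in WT and 139, 93.1 and 83.5 in dKO cortex, a log2 difference of -0.86 (standard error 0.22, adjusted p = 0.268 from limma). The *Them6* feature runs from 74720732 to 74728035 and covers the *Slurp1* span. *Jrk*, at -38.5 kb, was the one that was higher, by 0.26 on the log2 scale (standard error 0.11, adjusted p = 0.420 from limma). *Ptp4a3*, a phosphatase gene at -989 kb, had a log2 difference of -0.33 (standard error 0.08, adjusted p = 0.263 from limma). An unnamed feature at -372 kb, GSMG0014111, had 19, 33 and 31 reads in WT and 12, 0 and 1 in dKO libraries. Another, GSMG0013284, at 889 kb, had between 42 and 71 reads in WT and between 17 and 40 in dKO libraries. Some neighbours of *Lynx1* thus had differences near 0, *Adgrb1* and *Ly6e* at -0.04 each, and others had lower values, such as *Them6*. *Lynx1*, at -1.62, was lower than these, and GSMG0014111, at -3.19 on few reads, was lower still.

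**Figure D3:**
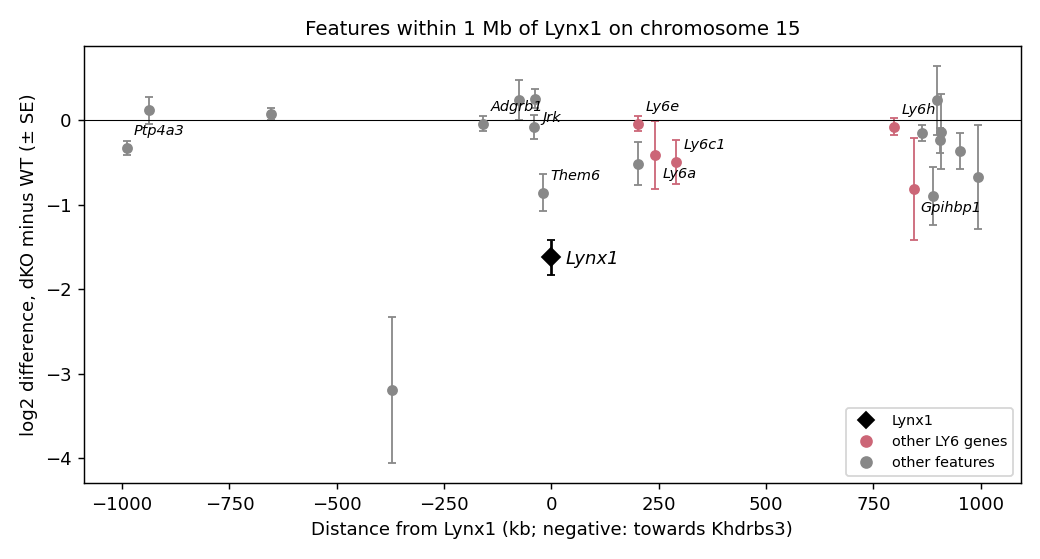
Log2 difference (dKO minus WT, points, with bars of 1 standard error) of the 22 tested features within 1 Mb of *Lynx1*, by their distance from it in kb. The black diamond is *Lynx1* at -1.62, red points are other LY6 genes, and grey points are the remaining features. *Ly6e* and *Ly6h* sit at -0.04 and -0.08, and the grey point at -3.19 is an unnamed feature with 0 to 12 reads in dKO libraries.

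In the LY6 family as a whole, 39 genes were listed beside *Lynx1*, 35 were in the table and 13 were tested. None passed the adjusted *P*-value of 0.05. At an unadjusted *P*-value under 0.05, 1 was lower (*Lypd6b*), as were 6.58% of all features. At the same level 2 were higher, *Ly6g6e* and *Lypd3*, as were 4.92% of all features. The median log2 difference of the 13 was -0.16. *Ly6g6e*, a LY6 gene of chromosome 17 whose product also acts on alpha4beta2 receptors, had 244, 266 and 208 normalized counts in WT. Its dKO libraries held 282, 378 and 376, each above every WT library (log2 difference 0.52, 95% interval 0.16 to 0.89, adjusted p = 0.337 from limma). *Lypd3*, better known from epithelia, had 19, 7 and 18 reads in WT and 22, 30 and 40 in dKO libraries. Its normalized counts were also higher in every dKO library, a pattern found in 7.89% of all features (log2 difference 1.19, standard error 0.48, adjusted p = 0.396 from limma). *Cd59b*, a complement inhibitor gene related to *Cd59a*, had a log2 difference of -1.15 (95% interval -2.47 to 0.18) against -0.09 (95% interval -0.78 to 0.60) for *Cd59a*. *Plaur*, the urokinase receptor gene, had one of 0.24 (95% interval -0.70 to 1.19).

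Of the 12 genes for acetylcholine synthesis, transport, breakdown and muscarinic receptors, 9 were tested and none passed the adjusted *P*-value of 0.05. *Chat*, the enzyme gene of acetylcholine synthesis, was at 0 in every library but dKO replicate 2, with 6 reads. The vesicular transporter gene *Slc18a3* had means of 6.13 normalized counts in WT and 5.71 in dKO cortex, and *Colq* was at 0 in all libraries. *Ache*, which encodes acetylcholinesterase, had 716, 531 and 596 normalized counts in WT and 418, 520 and 419 in dKO cortex. Each dKO library lay below every WT library, a pattern found in 8.48% of all features. The log2 difference of *Ache* was -0.44 (95% interval -0.76 to -0.12, adjusted p = 0.346 from limma). *Bche*, the related cholinesterase gene, overlapped between genotypes with a log2 difference of -0.59 (95% interval -1.86 to 0.67). The choline transporter gene *Slc5a7* and the acetylcholinesterase anchor gene *Prima1* had at most 26 reads in a library, and *Prima1* was at 0 in dKO replicate 3. *Chrm1*, the most abundant muscarinic receptor gene in this list by count, had 1948, 1129 and 2239 normalized counts in WT and 1377, 1665 and 979 in dKO cortex. The log2 differences of the 5 muscarinic genes ran from -0.90 (*Chrm5*) to 0.20 (*Chrm4*), with a median of -0.34 and overlapping genotypes in each.

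Genes for the folding and traffic of nicotinic receptors had log2 differences between -0.65 and 0.24. All 7 were tested, none passed an adjusted or an unadjusted *P*-value of 0.05, and the median log2 difference was -0.05. *Tmem35a* (listed as *Tmem35*), which encodes the chaperone NACHO required for alpha7 receptors, had 6597 ± 207 normalized counts in WT and 6443 ± 274 in dKO cortex (SD, n = 3 each; log2 difference -0.04, 95% interval -0.20 to 0.13). *Ric3*, another receptor chaperone gene, had 322 ± 5.20 and 305 ± 20.4 (SD, n = 3 each). Every dKO library of *Ric3* was below every WT library, as in 8.48% of all features, although dKO replicate 1 (317.6) and WT replicate 1 (317.7) nearly coincided. *Rer1* and *Unc50*, which act in receptor exit from the endoplasmic reticulum and Golgi, had log2 differences of 0.04 and -0.09. *Ubxn2a* was higher in every dKO library, as were 7.89% of all features, with a log2 difference of 0.24 (95% interval -0.03 to 0.50). *Ywhah*, a 14-3-3 gene, had -0.05. *Vsnl1*, which encodes a calcium sensor that binds alpha4, had 2795, 1404 and 2524 normalized counts in WT and 1098, 1973 and 1182 in dKO cortex, with a log2 difference of -0.65 (95% interval -1.43 to 0.13).

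**Figure D4:**
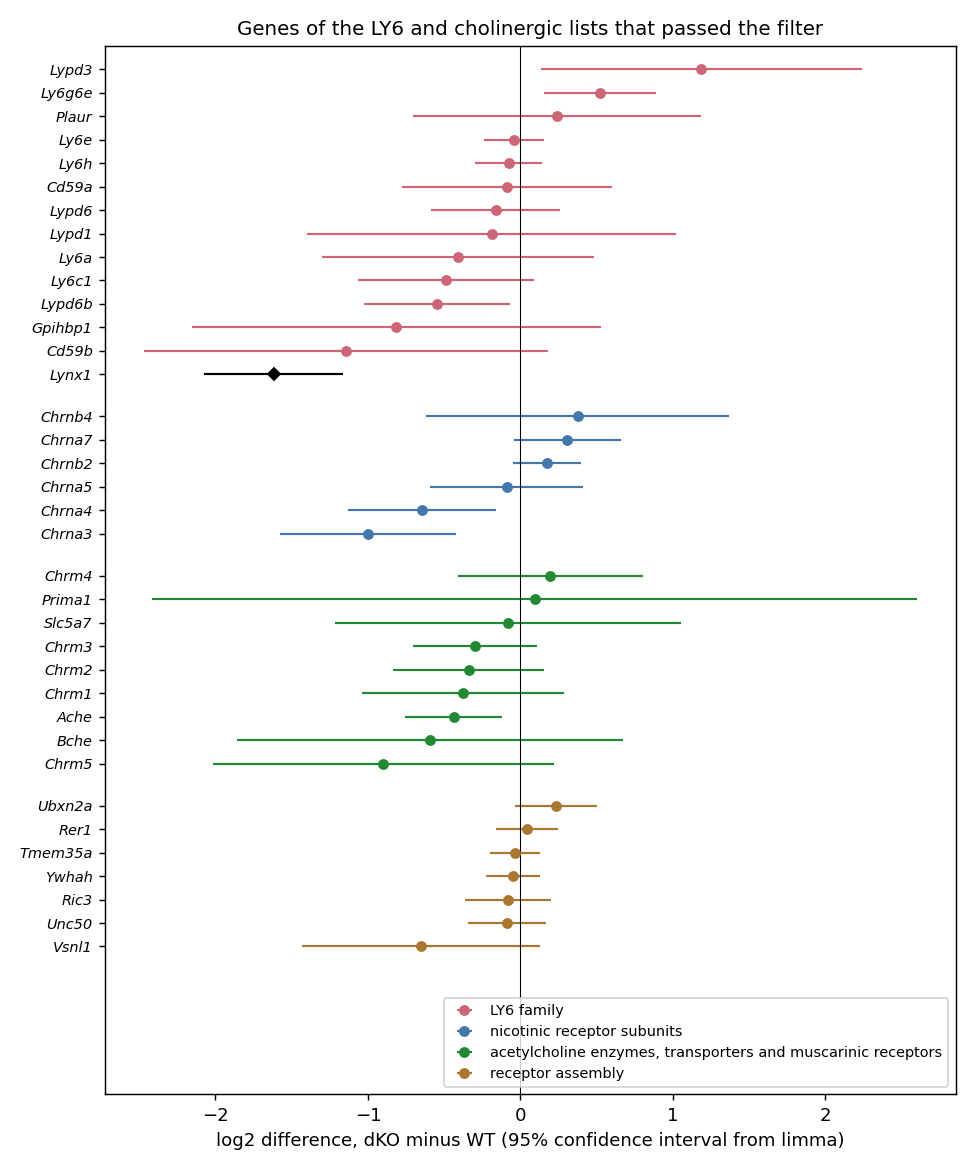
Log2 difference (dKO minus WT) with its 95% interval from limma for each tested gene of the LY6 family, the nicotinic subunits, the other acetylcholine genes and the receptor assembly genes. *Lynx1*, which was chosen for its fall, is the black diamond at -1.62. The intervals of *Ly6h*, *Ly6e*, *Tmem35a* and *Ywhah* are narrow and include 0, and that of *Prima1* is the widest.

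Markers of other cell types and regions were read in the same libraries. All 8 markers of dorsal cortex were present, with 3 of the 8 higher in dKO cortex at an unadjusted *P*-value under 0.05, as were 4.92% of all features, and their sum was 95362 normalized counts in WT replicate 2, 100609 in dKO replicate 1 and 105305 in dKO replicate 3, against 69834 to 76916 in the other 3 libraries. *Lypd1*, *Vsnl1* and *Chrm1* had their lower values in the first 3 of these libraries and their higher values in the others, in both genotypes, a pattern noted after the values were seen. *Ly6e*, *Ly6a*, *Ly6c1*, *Cd59a*, *Slc5a7*, *Bche* and *Chrm3* had the same split of libraries, and *Chrnb2* had the opposite one. *Lynx1* was lowest among the WT libraries in WT replicate 2, but its dKO values differed little, between 79.5 and 95.1. Markers of astroglia summed to between 16700 and 18581 in the same 3 libraries and to between 22162 and 26180 in the others. The part of this composition in the values of these genes was not tested.

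Interneuron markers summed to between 15810 and 21524 normalized counts in WT and between 13563 and 19112 in dKO cortex. They had the split of libraries seen for astroglia. WT replicate 2, dKO replicate 1 and dKO replicate 3 held between 13563 and 15810, and the others between 17005 and 21524. Markers of maturing neurons summed to between 52288 and 64280 in WT and between 52433 and 63003 in dKO cortex. Striatal markers, between 3789 and 5804, and markers of thalamus and habenula, between 1435 and 1781 over all 6 libraries, also overlapped between the genotypes. Among the latter *Pou4f1*, which defines the habenula, and *Gbx2* had means under 10 normalized counts. Meningeal markers ran from 589 to 1602 in WT and from 565 to 631 in dKO cortex. WT replicate 2, dKO replicate 1 and dKO replicate 3 were again lowest, although dKO replicates 1 (630) and 2 (631) nearly coincided. The median log2 difference of the 6 meningeal genes was -0.72. Of these, 1 was lower at an unadjusted *P*-value under 0.05, against 6.58% of all features. Choroid plexus markers summed to at most 110 normalized counts. No marker of any of these lists passed the adjusted *P*-value of 0.05, and their part in the *Lynx1* and *Chrna3* values was not tested.

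The genes whose pattern over the 6 libraries was most like that of *Lynx1* were found by Pearson correlation of log2(normalized count + 1) among 12732 features with a symbol and a mean of at least 50. They were *Slc2a5*, the gene of a fructose transporter (r = 0.997), *Pkd1*, the gene of polycystin-1 (r = 0.992), *1700030J22Rik* (r = 0.991), *Prune2* (r = 0.990) and *Ttc19*, a gene of mitochondrial complex III assembly (r = 0.988). The correlation holds the genotype difference by which *Lynx1* was chosen, and all 5 were lower in every dKO library. *Slc2a5* had 89.4, 76.3 and 96.4 normalized counts in WT and 45.4, 43.9 and 45.2 in dKO cortex. Their log2 differences ran from -0.94 in *Slc2a5* to -0.23 in *Ttc19*, all smaller than that of *Lynx1*. None of the other 8 members was among them.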

How the data were processed

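PolyA+ RNA of E18.5 cortex was sequenced in 3 WT and 3 dKO libraries (TruSeq Stranded mRNA kit, paired ends), grouped by their titles. Litters and batches are not given in the labels. The table deposited by the authors is keyed on genes of the FAST database and gives, for each library, a signal per gene: reads scaled by 1 size factor. The submitters' processing notes list mm10, STAR 2.7.5a, SAMtools, Picard, FastQC and DESeq2; the counting program and its strand setting are not given in the sources used here. Undoing that scaling gave whole reads (tolerance 0.01) for 100.0% of values above 0; 1 read was worth 0.877 to 1.16 normalized counts.

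Genotypes were compared with limma 3.58.1 (R 4.3.3; trend and robust options) on log2(normalized count + 1) over 18970 features averaging 10 or more, a scale that understates changes of low genes. Benjamini-Hochberg adjustment ran over all of them. *P*-values measure only the spread between these libraries. For single genes an exact permutation test of 3 against 3 cannot go below p = 0.1 and was not used. The scripts were tested on simulated counts. Levels per kb used transcript lengths of GENCODE M21 (GRCm38, the build of the table's positions). Of the listed genes, *Tmem35a* and *Ly6m* were matched by an older name, and *Ly6g2*, *Ly6g6d*, *Ly6g6f* and *Ly6g5b* had no match. Named genes were the 9 members, up to 10 tested genes of each list (LY6 family, nicotinic subunits, acetylcholine, receptor assembly) by mean level and any others with an absolute log2 difference of at least 0.58, the 5 genes most like *Lynx1*, and the targeted genes; others are said to have been chosen after their values were seen, apart from genes at or near 0. The members and lists were chosen with earlier results of these data known. Alternatives were pseudocounts of 0.1 and 10, means of at least 1 and 50, TMM rescaling, quantile normalization, plain limma (neither option), edgeR 4.0.16 and DESeq2 1.42.0 on recovered reads, a replicate block, each library left out in turn, and another transcript length. Python 3.11.15 was used for the rest. Sequences were not printed, and splicing was not analysed here.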

Additional observations from a re-analysis of the deposited data

How the results depend on the processing

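The count of 19 features past the threshold became 7 with plain limma (no trend, not robust), 207 under DESeq2 and 9 with the replicate block, and it ran from 7 without dKO replicate 3 to 46 without dKO replicate 1. The cause was not tested. The log2 difference of *Lynx1* was -1.81 to -1.48 on leaving out single libraries and between -1.66 and -1.53 in the other alternatives. None of the other 8 members and none of the lists had an adjusted *P*-value under 0.05 in any alternative that was run, *Lynx1* left out. At rank 8 of the 9 genes per kb in WT cortex, *Lynx1* went to 5 with the median transcript length and to between 7 and 9 with a WT library left out. The lowest correlation of the 5 genes most like *Lynx1* was 0.988 by Pearson and 0.943 by Spearman. The replicate block changed the call of no named gene other than *Lynx1*, whose call was not followed over the alternatives. Same-numbered libraries deviated from their group means with correlations of 0.098, -0.228 and -0.079, and not every library correlated best with its own number, so the numbers were not taken as pairs; 8 of the 9 features called with the block were among the 19.

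The log2 difference changed sign under an alternative in 11 of the named features. In the main fit these lay between -0.19 (*Lypd1*) and 0.24 (*Plaur*). Under quantile normalization *Chrna5* was 0.009, *Cd59a* 0.075 and *Slc5a7* 0.13, and with a pseudocount of 0.1 *Prima1* was -0.86. With each library left out, log2 differences ran from -0.16 to 0.011 for *Ly6h*, from -0.094 to 0.024 for *Ly6e* and from -0.60 to 0.19 for *Lypd1*. The ranges were -0.20 to 0.13 for *Chrna5*, -0.096 to 0.61 for *Plaur*, -0.33 to 0.15 for *Cd59a* and -0.37 to 0.11 for *Slc5a7*. Those of *Chrm4*, *Rer1* and *Unc50* were -0.023 to 0.46, -0.007 to 0.12 and -0.14 to 0.009. *Prima1* ran from -0.17 to 1.61, but without dKO replicate 1 or dKO replicate 2 it failed the filter on low values and was not fitted. *Khdrbs3* had an adjusted p of 0.0891 with plain limma. *Prune2* had one of 0.0458 with DESeq2. With 3 libraries a group, intervals of genes such as *Lypd1* or *Prima1* span changes in either direction. A change could be missed with so few libraries and this spread between them.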
